A study of Mus musculus with 2 samples.

Results

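The 9 genes described here encode receptors and ligands of the tumour necrosis factor (TNF) superfamily that pass signals between T cells and the cells they touch. They were chosen by name, as the rows of the deposited gene table whose symbol was Tnfrsf4, Tnfrsf9, Tnfrsf18, Tnfrsf8, Cd27, Cd40, Tnfsf8, Tnfsf11 or Cd40lg, and all 9 were found among the 27998 genes listed. They were followed in leukocytes of inflamed mouse skin, in 1 library from wild-type (WT) C57Bl/6 mice and 1 library from C57Bl/6 mice without Il31ra (IL31RAKO), which encodes a receptor chain for the itch cytokine IL-31. In both groups, Biostir ointment with house dust mite from D. farinae was put on shaved back skin 2 times a week for 3 weeks, after a 2% SDS solution on each occasion. Neck skin of 4 mice per genotype was pooled before live CD45+ cells were sorted, so each genotype is 1 sample, every comparison is between 2 libraries, and the effect of genotype cannot be told apart from that of the pool, sort or library. No untreated skin was analysed here, and the ages and sexes of the mice were not given in the sources used here.

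TNF-family costimulatory receptors are switched on in T cells after antigen recognition and, on binding their trimeric ligands, recruit TRAF adaptors that activate NF-kB and promote survival. Tnfrsf4 (OX40), Tnfrsf9 (4-1BB) and Tnfrsf18 (GITR) are also carried at rest by regulatory T cells, the Foxp3-dependent cells that restrain inflammation. Cd40lg (CD40 ligand) works in the other direction: activated helper T cells display it to CD40 on dendritic cells, macrophages and B cells.

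Cells were barcodes with 500 or more UMIs (molecular tags that count captured RNA molecules), 250 or more genes and under 10% mitochondrial UMIs, which left 11934 WT and 14619 IL31RAKO cells with medians of 2918.5 and 3181 UMIs. The libraries shared 247 cell barcodes, beside 237 expected by chance. Il31ra itself had 11 UMIs in WT and 26 in IL31RAKO cells, too few to check the labels, and a 3′ tag can lie outside a deleted part. Each cell was put into a class by marker genes, none of them a member, and the 17 classes that held at least 50 cells of both genotypes were compared, 7 of T cells, 8 of myeloid cells and 2 of skin-structure cells. Foxp3+ T cells had a Foxp3 UMI (302 WT and 528 IL31RAKO cells), and Ctla4/Ikzf2 T cells had 3 or more UMIs of the other regulatory T markers but none of Foxp3 (401 and 452). CD8 T cells carried 2 or more UMIs of Cd8a and Cd8b1 together (1397 and 1361), and Cd4+ T cells a Cd4 UMI (193 and 143). Cd7/Avil T cells had high levels of an epidermal T cell list (1129 and 841). Dermal gamma-delta T cells (655 and 263) were set by their own list, of which Trdc and Tcrg-V6 were not used here, and T cells that met none of these rules were called other T (1398 and 1015). A cell took the first rule it met, in the order Foxp3+, dermal gamma-delta, Cd7/Avil, CD8, Ctla4/Ikzf2 and Cd4+. The Cd4+ T class therefore lacks cells with a Cd4 UMI that met an earlier rule. Such a UMI was found in 17.2% of WT and 17.9% of IL31RAKO Ctla4/Ikzf2 T cells. Near the limit of the T cell list, between 15 and 25 UMIs per 10000, lay 1372 cells, 5.17% of all.

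Levels are in CPM, the UMI count of a gene scaled to all UMIs of its class, with exact Poisson 95% intervals in parentheses, and shares of cells have exact Clopper-Pearson intervals. A ratio divides the IL31RAKO level by the WT level, and its exact 95% interval follows in brackets. These intervals hold counting error and nothing else, since there were no replicates and no test was possible. A gene was counted as higher or lower where it had 50 or more UMIs in the class over both libraries and its ratio was at least 1.5, or at most the inverse. Free RNA was read from barcodes of 10 to 50 UMIs. Macrophage genes in T classes lay at 6.41% to 7.91% of their free-RNA level in WT and at 13.8% to 17.4% in IL31RAKO, and the free-RNA part of the Tnfrsf4 level in T classes was accordingly 10.4 to 12.8 CPM in WT and 34.1 to 43.0 CPM in IL31RAKO. Cd8a, Cd8b1 and Cd4 UMIs also occurred inside Foxp3+ T cells, where Cd8a was at 78.9 CPM in WT and 139.7 CPM in IL31RAKO; its part in the results was not tested.

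The first 3 receptor genes lie on chromosome 4, and Tnfrsf4 and Tnfrsf18 are close neighbours. In GENCODE annotation of GRCm38, Tnfrsf4 spans chr4:156013843-156016612 on the plus strand, and Tnfrsf18 spans chr4:156026164-156028895 on the same strand, 9551 bases further on. Tnfrsf9 (chr4:150914562-150946102, plus strand), Tnfrsf8 (chr4:145267137-145315164, minus) and Tnfsf8 (chr4:63831308-63861347, minus) lie on the same chromosome, while Cd27 is on chromosome 6, Tnfsf11 on 14, Cd40 on 2 and Cd40lg on X. The gene Sdf4 ends 232 bases before Tnfrsf4 on the same strand, and Gm16008 runs antisense over Tnfrsf18. Gm16008 had 60 WT and 41 IL31RAKO UMIs, beside 5779 and 8400 of Tnfrsf18.

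Upstream sequences are shown for the 3 receptor genes Tnfrsf4, Tnfrsf9 and Tnfrsf18, which were highest in Foxp3+ T cells. Cd27 was also highest there, and its sequence is not shown. The sequences come from RefSeq promoter windows of GRCm38.p6, whose table held 7 of the 9 members (not Cd40lg or Cd40). The first runs from the end of Sdf4 to the base before the RefSeq start of Tnfrsf4 (chr4:156013611-156013694, plus strand), with the letters CACGTG in capitals. The second ends just before the GENCODE start of Tnfrsf18 (chr4:156026072-156026163, plus strand; the RefSeq start lies further on), with the reverse complement of GGAAA in capitals. The third is a 30-base stretch around matches to the NF-kB consensus, in capitals, 43 to 33 bases before the second RefSeq start of Tnfrsf9 (chr4:150927946-150927975, plus strand), and an exon of another Tnfrsf9 transcript in GENCODE covers it.

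Tnfrsf4 upstream: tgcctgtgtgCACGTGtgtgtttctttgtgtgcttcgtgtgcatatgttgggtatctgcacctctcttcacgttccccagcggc
Tnfrsf18 upstream: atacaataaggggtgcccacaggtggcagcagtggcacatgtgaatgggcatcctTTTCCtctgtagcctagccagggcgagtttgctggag
Tnfrsf9 site: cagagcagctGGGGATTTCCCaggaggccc

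On both strands of the 250 bases upstream of each start, the NF-kB consensus was matched in the window of the second Tnfrsf9 start and in that of Tnfrsf8. It was matched in no other member window, that of the first Tnfrsf9 start included. Of all 32851 windows of this length, 7.25% held it. The same pair of windows held TGANTCA (6.75% of all windows). CACGTG was in the Tnfrsf4 and Tnfrsf8 windows (6.02%), and GGAAA, which the NF-kB matches can contain, is in 55.6% of all windows. These matches describe letters and are not evidence of binding.

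Foxp3+ T cells had the highest levels of Tnfrsf4, Tnfrsf9, Tnfrsf18 and Cd27 in both libraries, the 3 ligand genes were highest in Cd4+ T cells, and Cd40 was highest in mature dendritic cells. The plot of levels by class shows this order.

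**Figure D1:**
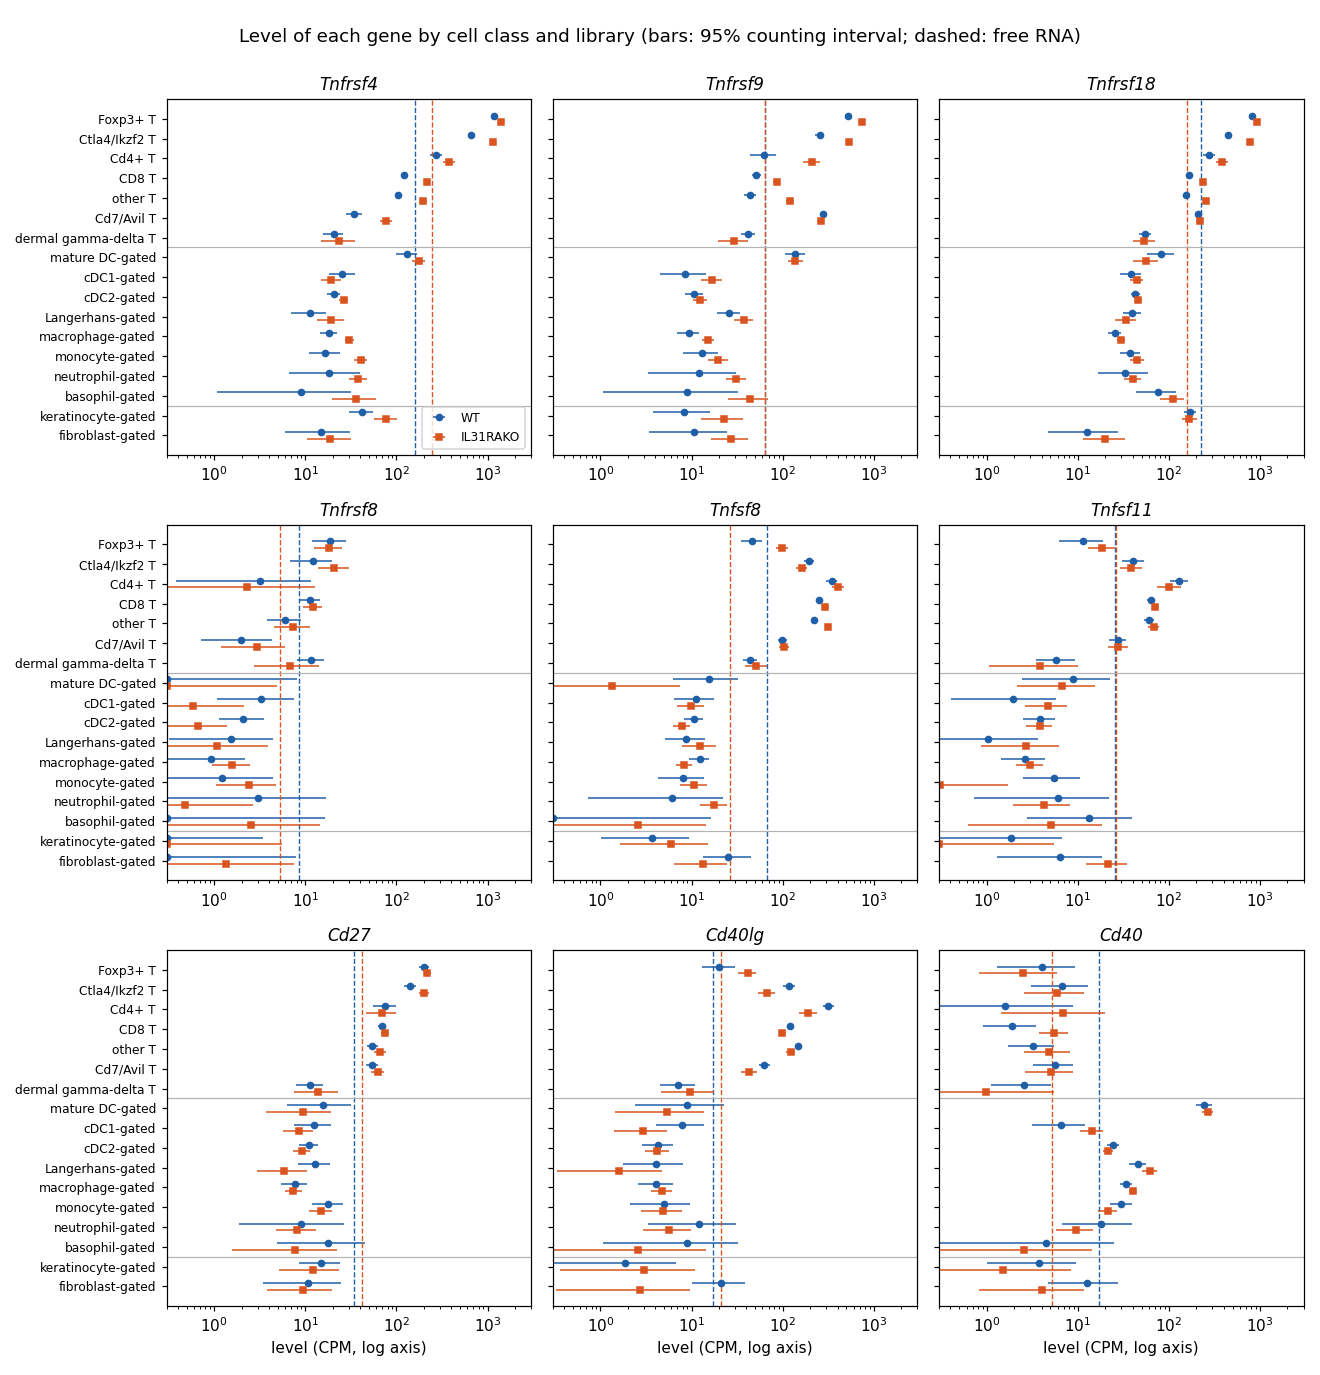
Level of each of the 9 genes (CPM, log axis) in 17 cell classes, WT as circles and IL31RAKO as squares, with 95% counting intervals as bars; dashed lines are the levels in free RNA, grey lines part T, myeloid and skin-structure classes, and values of 0 sit on the left edge. Tnfrsf4 reaches 1173 and 1405 CPM in Foxp3+ T cells, and Cd40 reaches 244 and 267 CPM in mature DC-gated cells.

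Tnfrsf4, whose product OX40 prolongs T cell responses, stood at 1173 CPM (1114 to 1235) in WT and 1405 CPM (1354 to 1458) in IL31RAKO Foxp3+ T cells. It followed at 652 and 1139 CPM in Ctla4/Ikzf2 T cells, at 270.5 and 376 CPM in Cd4+ T cells and at 119.9 and 219 CPM in CD8 T cells. These 4 T classes had intervals that did not overlap in either library, whereas the intervals of CD8 T and other T cells (105 and 196 CPM) did. Cd7/Avil T cells had 34.4 and 76.4 CPM and dermal gamma-delta T cells 20.4 and 23.3 CPM, where free RNA could hold 11.3 and 43.0 CPM, so that 9.04 CPM was left in WT and 0 in IL31RAKO. Outside T cells, mature DC-gated cells had 131 CPM (99.6 to 169) and 176 CPM (147 to 208), well over a free-RNA part of 20.7 and 19.6 CPM. Macrophage-gated cells, which should lack the gene, had 18.0 and 30.5 CPM, with free-RNA parts of 23.9 and 23.5 CPM.

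Tnfrsf9, whose product 4-1BB supports the survival of activated lymphocytes, stood at 521 CPM (482 to 563) in WT and 749 CPM (711 to 787) in IL31RAKO Foxp3+ T cells. Its second class was not the same in the 2 libraries. Cd7/Avil T cells had 276 CPM (257 to 295) in WT and 261 CPM (240.5 to 282) in IL31RAKO, and Ctla4/Ikzf2 T cells had 256 CPM (229 to 284) and 539 CPM (501 to 579.8). In WT these 2 classes overlapped, and in IL31RAKO the Ctla4/Ikzf2 T cells were above. Of the non-T classes, mature DC-gated cells were again highest, with 137 and 138 CPM.

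Tnfrsf18, whose product GITR marks regulatory and activated T cells, stood at 810.2 and 925 CPM in Foxp3+ T cells, 449 and 781 CPM in Ctla4/Ikzf2 T cells, and 274 and 383 CPM in Cd4+ T cells. Cd7/Avil T cells held 209.8 and 219 CPM, and keratinocyte-gated cells 171 CPM (147 to 198) and 168 CPM (138 to 202), against free-RNA parts of 23.6 and 11.9 CPM in the latter. A Tnfrsf18 UMI was found in 60.4% of 96 WT and 72.2% of 54 IL31RAKO keratinocyte-gated cells, which had medians of 9522.5 and 11587 UMIs. In macrophage-gated cells, with medians of 2430 and 3250.5 UMIs, the share was 6.80% and 9.04%. The sort for CD45 should remove keratinocytes, and Ptprc, which encodes CD45, had a UMI in 37.5% and 35.2% of these cells.

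Cd27, a receptor of naive and regulatory T cells that binds CD70, stood at 199 and 219 CPM in Foxp3+ T cells and 141 and 202 CPM in Ctla4/Ikzf2 T cells. In the Cd4+, CD8, other and Cd7/Avil T classes it lay between 53.7 and 74.3 CPM, with overlapping intervals for most neighbours in that order. Tnfrsf8, which encodes CD30, was sparse, with 236 and 240 UMIs in all cells. Its levels were 18.5 and 18.0 CPM in Foxp3+ T cells, 12 and 20.7 CPM in Ctla4/Ikzf2 T cells and 11.3 and 12.2 CPM in CD8 T cells. No Tnfrsf8 UMI was seen in mature DC-gated or keratinocyte-gated cells of either library.

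The ligands had another order. Tnfsf8, the CD30 ligand, stood at 346 CPM (302 to 395) in WT and 409 CPM (351 to 473) in IL31RAKO Cd4+ T cells, at 252 and 288 CPM in CD8 T cells and at 220.5 and 315 CPM in other T cells. In Foxp3+ T cells it was lower, at 45.9 and 98.6 CPM. Tnfsf11, which encodes RANKL, a ligand that sustains dendritic cells and drives osteoclast formation, stood at 129.7 and 101 CPM in Cd4+ T cells, 63.6 and 71.1 CPM in CD8 T cells, and 11.3 and 18.5 CPM in Foxp3+ T cells. Cd40lg stood at 316 CPM (274 to 363) and 191 CPM (152 to 236) in Cd4+ T cells, and at 20.1 and 41.1 CPM in Foxp3+ T cells. CD8 T cells also held Cd40lg, at 121 and 99.4 CPM, where 1.57% and 2.50% of the cells had a Cd4 UMI. Cd4 was sparse in other classes too, with a UMI in 23.5% and 28.2% of Foxp3+ T cells. Whether the CD8 T class held CD4 cells without a Cd4 UMI was not tested.

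Cd40, the receptor for that ligand, was a gene of antigen-presenting cells. Mature DC-gated cells held 244 CPM (200.4 to 294) in WT and 267 CPM (232 to 307) in IL31RAKO. Langerhans-gated cells followed with 45.4 and 61.5 CPM, macrophage-gated cells with 34.0 and 39.9 CPM, monocyte-gated cells with 30.1 and 21.3 CPM and cDC2-gated cells with 24.4 and 21.6 CPM. No T class exceeded 6.89 CPM of Cd40. Scrublet, a doublet caller, gave its highest scores to 7.04% of the WT and 42.0% of the IL31RAKO mature DC-gated cells, and without those cells the Tnfrsf4 ratio in that class was 1.86 in place of 1.34, past 1.5-fold.

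**Figure D2:**
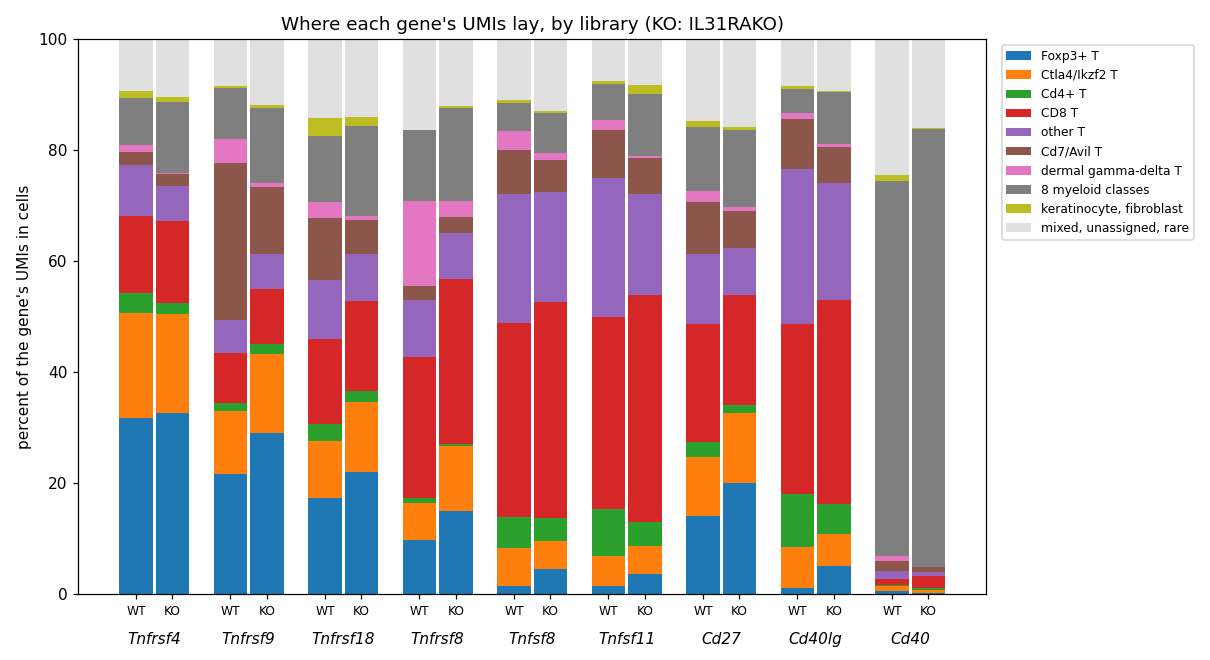
Percent of each gene's UMIs in cells (vertical axis) that lay in each cell class, as stacked bars for the WT and IL31RAKO (KO) library. The Foxp3+ T segment of Tnfrsf4 covers 31.7% in WT and 32.6% in IL31RAKO, and that of Tnfrsf9 covers 21.7% and 29.1%.

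Most UMIs of the 8 members other than Cd40 came from T classes. The 7 T classes held 80.8% and 75.8% of Tnfrsf4 UMIs, 81.9% and 74.1% of Tnfrsf9 UMIs, and 70.7% and 68.1% of Tnfrsf18 UMIs. Foxp3+ T cells were 2.53% of WT and 3.61% of IL31RAKO cells but held 31.7% and 32.6% of Tnfrsf4 UMIs; the matching cluster held 50% and 51.5%. Cd7/Avil T cells held 28.2% of the Tnfrsf9 UMIs in WT and 12.1% in IL31RAKO; this class was 9.46% and 5.75% of cells. CD8 T cells held 34.9% and 38.9% of Tnfsf8 UMIs and 30.5% and 36.7% of Cd40lg UMIs. The clusters matched to CD8 T cells held 69.5% and 70.9% of Tnfsf8 UMIs, and 62.9% and 63.9% of Cd40lg UMIs. Of the classed cells in these clusters, only 54.2%, 42.9% and 59.2% were CD8 T cells. The largest of the clusters also held 36.3% of WT and 43.8% of IL31RAKO other T cells. For Cd40, the 8 myeloid classes held 67.5% and 78.7%, with macrophage-gated cells at 20.2% and 32.5%.

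Over whole libraries, Tnfrsf4 went from 99.6 to 140.5 CPM (ratio 1.41 [1.36, 1.46]), Tnfrsf9 from 64.5 to 83.6 CPM (1.3 [1.24, 1.36]) and Tnfrsf18 from 125 to 137 CPM (1.10 [1.06, 1.13]). Cd40lg went from 45.5 to 25.7 CPM (0.565 [0.529, 0.604]). The 2 libraries differed in class make-up: macrophage-gated cells were 14.3% of WT and 22.9% of IL31RAKO cells. When IL31RAKO levels were weighted to the WT make-up, the ratio of Tnfrsf4 was 1.54, that of Tnfrsf9 1.5, that of Tnfrsf18 1.27 and that of Cd40lg 0.770. Make-up alone, with WT levels at the IL31RAKO make-up, gave 0.946 for Tnfrsf4, 0.847 for Tnfrsf9 and 0.731 for Cd40lg. For Tnfsf8 the whole-library ratio of 0.853 lay on the other side of 1 from the ratio of 1.17 at equal make-up, and for Tnfsf11 the values were 0.788 and 1.04. Cd40 went from a ratio of 1.23 to 1.03.

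Within the 7 T classes, 4 ratios of Tnfrsf4, 4 of Tnfrsf9 and 2 of Tnfrsf18 were at least 1.5, and 0 were at most the inverse. The share of all genes past the same fold in a class ran from 3.22% to 5.04% higher and from 3.09% to 10.8% lower. The counting interval lay wholly above 1 in 6 T classes for Tnfrsf4, in 5 for Tnfrsf9 and in 5 for Tnfrsf18. For Cd40lg, 5 of the 6 T classes with enough UMIs had an interval wholly below 1, and 1, Foxp3+ T cells, had one wholly above. Of all genes measured, the interval lay wholly above 1 for 8.27% in Foxp3+, 7.27% in Ctla4/Ikzf2, 5.71% in Cd4+, 8.6% in CD8, 8.21% in other, 8.0% in Cd7/Avil and 7.56% in dermal gamma-delta T cells. It lay wholly below 1 for 8.13%, 7.14%, 5.57%, 9.66%, 9.82%, 10.5% and 11.7% in the same order. The classes of 1 library share its pool and sort and are not replicates of each other.

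**Figure D3:**
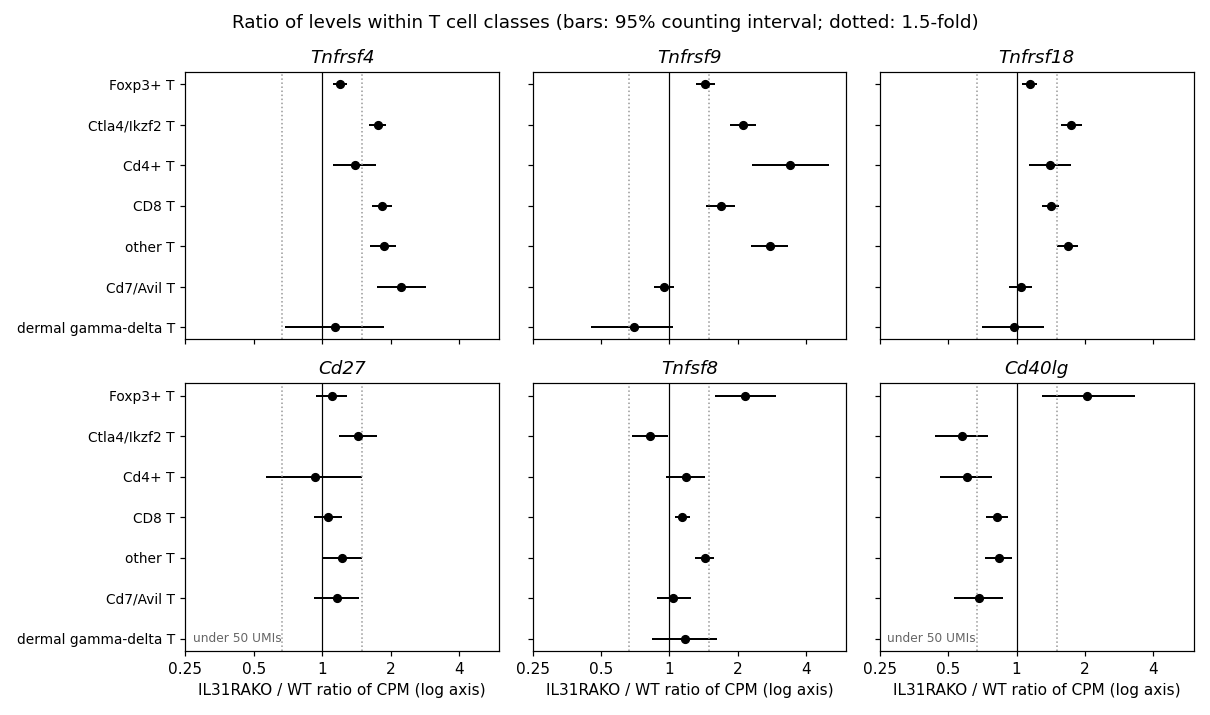
Ratio of CPM, IL31RAKO over WT (log axis), of 6 genes in the 7 T cell classes, with 95% counting intervals as bars; dotted lines mark 1.5-fold in each direction and the solid line a ratio of 1. The Tnfrsf4 intervals lie wholly to the right of 1 in 6 of 7 classes, dermal gamma-delta T cells excepted, and those of Cd40lg wholly to the left in 5 of 6, with Foxp3+ T cells at 2.04.

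In Foxp3+ T cells, 3 of the 8 members with enough UMIs were higher by 1.5-fold or more and 0 lower, where 5.04% of the 5889 genes measured in that class were higher and 4.38% lower. The 3 were Tnfsf8, Tnfsf11 and Cd40lg, ligand genes with few UMIs there. Tnfsf8 went from 57 to 197 UMIs (2.15 [1.59, 2.94]), but 24 of the WT UMIs lay in 1 cell, and without the top cell of each library the ratio was 3.33; with the T cell list at 40 or more per 10000 it was 3.46. Cd40lg went from 25 to 82 UMIs (2.04 [1.29, 3.33]) and Tnfsf11 from 14 to 37 (1.64 [0.867, 3.29]). The Tnfsf11 value was under 1.5 by the mean of per-cell CPM (1.21), at that T cell list limit (1.25), under a 5% mitochondrial limit (1.44) and by cluster (1.0). In the cluster richest in Foxp3+ T cells, taken in place of the class, the Cd40lg ratio was 0.721, on the other side of 1; 46.0% of the classed cells of that cluster had a Foxp3 UMI. The receptors differed less: Tnfrsf4 had 1.20 [1.12, 1.28], Tnfrsf9 1.44 [1.31, 1.58], Tnfrsf18 1.14 [1.06, 1.23] and Cd27 1.10 [0.939, 1.29]. Foxp3 itself was at 346 and 394 CPM in this class, a level partly fixed by the rule that each cell has a Foxp3 UMI. Ctla4 was at 632 and 812 CPM there, while Ikzf2 stood at 744 and 740 CPM.

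In Ctla4/Ikzf2 T cells, 3 of 7 members were higher and 1 lower, where 4.92% of 5267 genes were higher and 4.84% lower. Tnfrsf4 went from 868 to 1542 UMIs (1.75 [1.61, 1.90]), Tnfrsf9 from 340 to 730 (2.11 [1.85, 2.41]) and Tnfrsf18 from 598 to 1058 (1.74 [1.57, 1.93]). Cd27 was at 1.44 [1.19, 1.74], and Cd40lg went from 156 to 91 UMIs (0.573 [0.438, 0.747]). The level of the regulatory T list that set this class moved too, from a median of 17.3 to 21.9 UMIs per 10000, and 46.9% of its WT and 62.4% of its IL31RAKO cells lay in the cluster richest in Foxp3+ T cells; the part of this in the receptor ratios was not tested.

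CD8 T cells had 2 of 8 members higher and 0 lower, beside 3.22% and 3.09% of 8827 genes. Tnfrsf4 went from 119.9 to 219 CPM (1.83 [1.66, 2.02]), and Tnfrsf9 went from 51.4 to 86.3 CPM (1.68 [1.45, 1.95]). Tnfrsf18 had 1.41 [1.29, 1.53], Tnfsf8 1.14 [1.06, 1.23] and Cd40lg 0.820 [0.731, 0.918]. Free RNA could hold 10.4 CPM of Tnfrsf4 in WT and 35.8 CPM in IL31RAKO CD8 T cells. After thinning every cell to 2000 UMIs, a Tnfrsf4 UMI was found in 14.1% (12.2 to 16.2) of 1232 WT and 23.9% (21.5 to 26.5) of 1183 IL31RAKO CD8 T cells, against 22.7% and 36.7% unthinned; 165 and 178 shallower cells were left out.

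Cd4+ T cells were the smallest T class and had 1 of 7 members higher, Tnfrsf9, and 1 lower, Cd40lg, beside 4.34% and 5.64% of 2695 genes. Tnfrsf9 went from 39 to 91 UMIs (3.39 [2.30, 5.06]) and Cd40lg from 200 to 83 UMIs (0.602 [0.461, 0.782]). The Tnfrsf9 UMIs lay in few cells, unthinned in 10.4% (6.45 to 15.6) of WT and 18.9% (12.8 to 26.3) of IL31RAKO cells. The cell with most Tnfrsf9 UMIs held 11 in WT and 22 in IL31RAKO. A Cd40lg UMI was found in 49.0% (41.0 to 57.1) of WT and 30.2% (21.7 to 39.9) of IL31RAKO Cd4+ T cells at 2000 UMIs, and unthinned in 55.4% and 37.8%; macrophage-gated cells had 1.23% and 1.40% unthinned. Tnfrsf4 had 1.39 [1.12, 1.73] here, although the share of cells with a UMI was 43.0% and 42.0%.

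Among other T cells, 3 of 7 members were higher and 0 lower, beside 3.77% and 4.96% of 7798 genes: Tnfrsf4 (1.86 [1.63, 2.12]), Tnfrsf9 (2.76 [2.29, 3.34]) and Tnfrsf18 (1.68 [1.5, 1.87]). In Cd7/Avil T cells, Tnfrsf4 was the 1 of 7 members higher (2.22 [1.74, 2.85]) and 0 were lower, beside 3.55% and 5.42% of 7773 genes. By cluster its ratio was 1.25, but in a matched cluster only 37.4% of classed cells were Cd7/Avil T cells. That cluster also held 48.7% of WT and 53.1% of IL31RAKO Cd4+ T cells. In the Cd7/Avil T class, Tnfrsf9, with 842 and 621 UMIs, was at 0.945 [0.851, 1.05] and Tnfrsf18 at 1.04 [0.926, 1.17]. The Cd8a level of that class was not equal between libraries, at 179 and 316 CPM. Dermal gamma-delta T cells had 0 of 4 members past 1.5-fold in either direction, where 4.66% of 6454 genes were higher and 10.8% lower.

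Receptor transcripts also met in single cells. At least 1 UMI of each of Tnfrsf4, Tnfrsf9 and Tnfrsf18 was present in 47.4% of WT and 54.7% of IL31RAKO Foxp3+ T cells. In Ctla4/Ikzf2 T cells the shares were 23.4% and 35.0%, and in CD8 T cells 2.93% and 7.79%. These shares are not thinned, and the medians of UMIs per cell were 2952 and 2985.5 in Foxp3+, 2695 and 2449 in Ctla4/Ikzf2, and 3166 and 3493 in CD8 T cells.

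**Figure D4:**
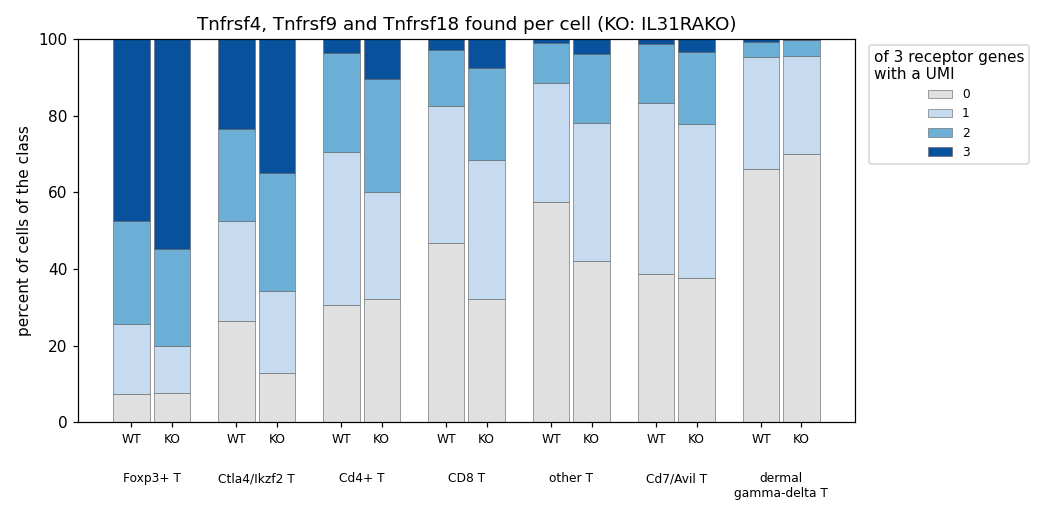
Percent of cells of each T cell class (vertical axis) with a UMI of 0, 1, 2 or 3 of the genes Tnfrsf4, Tnfrsf9 and Tnfrsf18, for the WT and IL31RAKO (KO) library. All 3 were found in 47.4% and 54.7% of Foxp3+ T cells, and none in 66.1% and 70.0% of dermal gamma-delta T cells.

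With each cell thinned to 1000 UMIs, Tnfrsf4 and Tnfrsf18 were found together in 36.5% of WT and 43.6% of IL31RAKO Foxp3+ T cells, where the products of their single shares were 31.0% and 35.4%. Tnfsf8 and Tnfrsf4 went the other way in that class, together in 0.669% and 1.76% against products of 1.83% and 3.55%, on 2 and 9 cells. In Ctla4/Ikzf2 T cells this pair was also below its products, at 2.39% and 1.92% against 4.68% and 4.62%, on 9 and 8 cells. In CD8 T cells the same pair was found together in 2.04% and 4.47%, above products of 1.44% and 3.27%, on 28 and 60 cells, and in other T cells in 2.03% and 3.79%, above 1.24% and 2.42%. The spread among cells was wide: Foxp3+ T cells had medians of 2 and 3 Tnfrsf4 UMIs per cell and maxima of 52 and 73, and the tenth of cells with most held 45.6% and 39.2% of them.

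Of the members in myeloid classes, Tnfrsf18 in cDC2-gated cells (288 and 482 UMIs) and Cd40 in macrophage-gated cells (183 and 481) had the most UMIs. T cell genes in cDC2-gated cells lay at 14.6% of their free-RNA level in WT and 9.44% in IL31RAKO. Free RNA could therefore hold a part of these Tnfrsf18 UMIs. With free RNA not subtracted, no member was past 1.5-fold in either direction among 8 in cDC2-gated cells (2.05% of 9437 genes higher, 3.09% lower). The same held among 4 in mature DC-gated cells (7.63% and 5.57% of 2477). In macrophage-gated cells, Tnfrsf4 (1.70 [1.35, 2.14]) and Tnfrsf9 (1.64 [1.20, 2.30]) were 2 of 8 members higher, and 0 lower, beside 3.86% and 3.77% of 9611 genes. Free RNA could hold 23.5 of 30.5 CPM of Tnfrsf4 and 6.0 of 15.3 CPM of Tnfrsf9 in IL31RAKO, and without the highest Scrublet scores both ratios were 1.33. Cd40 was at 1.17 [0.989, 1.40] there and at 1.36 [1.02, 1.81] in Langerhans-gated cells. Tnfrsf4 was the 1 of 4 members higher in Langerhans-gated cells (22 and 36 UMIs; 1.72 [0.983, 3.06]) and 0 were lower, beside 4.87% and 4.22% of 6013 genes. Its levels there, 11.2 and 19.3 CPM, lay below the 22.9 and 30.9 CPM that free RNA could hold. Its ratio was 1.41 without the highest Scrublet scores, 1.33 by cluster and 2.96 by the mean of per-cell CPM. In cDC1-gated cells, Cd40 (10 and 49 UMIs; 2.19 [1.09, 4.84]) and Tnfrsf9 (1.99 [1.08, 3.96]) were 2 of 5 members higher, and 0 lower, beside 3.96% and 4.22% of 6287 genes. In the cluster matched to that class the Cd40 ratio was 0.723, with free RNA subtracted it was 3.3, and by the mean of per-cell CPM it was 3.92, where that of Tnfrsf9 was 3.22. The WT Tnfrsf9 level of cDC1-gated cells, 8.45 CPM, lay below the 8.75 CPM that free RNA could hold. In IL31RAKO the level was 16.8 CPM and the free-RNA part 5.33 CPM. Monocyte-gated cells had 2 of 5 members higher, Tnfrsf4 (2.44 [1.6, 3.84]) and Tnfrsf9 (1.51 [0.91, 2.6]), and 0 lower, beside 4.0% and 4.63% of 6500 genes. Their IL31RAKO levels were 40.5 and 19.5 CPM, with free-RNA parts of 28.2 and 7.2 CPM, and the Tnfrsf9 ratio lay between 1.13 (by cluster) and 3.78 (free RNA subtracted) over the alternatives. In neutrophil-gated cells, with 6 and 4 WT UMIs, Tnfrsf4 (2.1 [0.922, 5.89]) and Tnfrsf9 (2.56 [0.952, 9.66]) were 2 of 3 members higher and 0 lower, beside 12.7% and 11.1% of 3955 genes. The Tnfrsf4 ratio was 1.11 by cluster, and that of Tnfrsf9 was 4.99 under a 5% mitochondrial limit. Free RNA could hold 34.6 CPM of Tnfrsf4 in WT neutrophil-gated cells, above their level of 18.1 CPM, and 33.2 of 38.1 CPM in IL31RAKO. In keratinocyte-gated cells 1 of 2 members was higher, Tnfrsf4 (45 and 51 UMIs; 1.83 [1.2, 2.8]), and 0 lower, beside 9.0% and 5.58% of 3657 genes. The 1 member measured in basophil-gated cells was not past 1.5-fold (7.2% and 5.64% of 1347 genes), and 0 members had enough UMIs in fibroblast-gated cells (10.5% and 6.74% of 3262).

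The binding partners of the members were mostly rare. Tnfsf4, the OX40 ligand, had 23 and 52 UMIs in all cells, of which 7 and 28 were in cDC2-gated cells, and Tnfsf18, the GITR ligand, had 2 and 7. Cd70, the ligand of CD27, had 105 and 174 UMIs. Tnfsf9, the 4-1BB ligand, was the partner ligand with most UMIs, at 74.9 and 69.0 CPM in cDC2-gated, 73.7 and 46.3 CPM in monocyte-gated and 79.8 and 38.6 CPM in mature DC-gated cells. Tnfrsf11a, the receptor for RANKL, stood at 48.8 and 57.2 CPM in mature DC-gated cells and at 27.9 and 28.9 CPM in macrophage-gated cells.

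Other genes of the family were listed as 22 receptors, 15 ligands, and 28 adaptors and NF-kB components. In Foxp3+ T cells, none of the 5 receptors and 5 ligands measured was past 1.5-fold, and of 25 adaptors and NF-kB components 2 were higher and 0 lower (median log2 ratio 0.10), where 5.04% of all genes measured were higher and 4.38% lower. These were Map3k14, which encodes the NF-kB-inducing kinase (2.14 [1.21, 4.00]), and the adaptor Traf5 (1.82 [0.995, 3.53]). In Ctla4/Ikzf2 T cells, 4 of 24 components were higher and 1 lower (median log2 ratio 0.19), where 4.92% of all genes measured were higher and 4.84% lower. Traf4 went from 24 to 67 UMIs (2.74 [1.70, 4.57]) and Birc3, an inhibitor of apoptosis and an NF-kB target, from 108 to 179 (1.63 [1.28, 2.09]). Nfkbie, an NF-kB inhibitor, was at 2.05 [1.21, 3.59] and the kinase Ripk1 at 1.56 [0.959, 2.57], while the kinase Chuk was at 0.655 [0.412, 1.03]. Of 3 measured ligands, lymphotoxin alpha (Lta) was lower (0.663 [0.392, 1.11]). The median log2 ratio of all genes was -0.03 in that class.

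Across the 13 classes that held at least 100 cells of both genotypes (26 points, 1 per class and library, of log2(CPM + 10), which share library, depth and free RNA), the members most alike were Tnfrsf18 and Cd27 (Pearson's r = 0.985) and Tnfsf11 and Cd40lg (0.983). Tnfsf8 followed with Cd40lg (0.959) and Tnfsf11 (0.958), and Tnfrsf18 with Tnfrsf4 (0.952) and Tnfrsf9 (0.941). Of 8843 other genes, those most like Tnfrsf4 were Il10 (0.964), Gpr174 (0.961) and Slamf6 (0.955). Gpr174 (0.976), Sdf4 (0.974) and Gpr55 (0.969) were most like Tnfrsf18, and Gzmb (0.959), Sdf4 (0.933) and Arid5b (0.93) most like Tnfrsf9. Sdf4, the neighbour upstream of Tnfrsf4, stood at 528 CPM in Foxp3+ T cells of both libraries, at 341 and 498 CPM in Ctla4/Ikzf2, 267 and 399 CPM in Cd4+, 243 and 264 CPM in CD8 and 188 and 269 CPM in other T cells, and at 132 and 130.2 CPM in cDC2-gated cells. Cd27 was most like Gpr55 (0.969), Gpr174 (0.968) and Sdf4 (0.956), and Tnfrsf8 most like Il2ra (0.942), a gene of the regulatory T list, Hsbp1l1 (0.913) and Msrb3 (0.911). The 3 genes most like Tnfsf8 were Il22 (0.965), Il13 (0.954) and Hivep2 (0.953), those most like Tnfsf11 were Nsg2 (0.956), Il13 (0.940) and Rnf19a (0.926), and those most like Cd40lg were Nsg2 (0.939), Il13 (0.928) and Cd28 (0.926); Il13 is on the marker list of innate lymphoid cells. Cd40 was most like Pla2g4a (0.947), Csf1r (0.939) and Gdpd3 (0.938), and Csf1r is a macrophage gate marker. Mature DC-gated cells, the class with the highest Cd40 level, held 71 WT and 88 IL31RAKO cells and were not among the 13 classes. These are descriptions across classes, chosen as the highest of many.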

How the data were processed

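The deposited files held raw UMI counts per gene and barcode, 737280 barcodes per library and empty droplets included, with no normalization by the authors, in libraries made with the 10x Single Cell 3′ kit per the labels' protocols. Cell Ranger 3.1, Seurat 3.2.2 and mm10 are named in the submitters' processing notes without a role. Counts were summed over the cells of a class and divided by the class total (CPM); the libraries held 46236909 (WT) and 61370565 (IL31RAKO) UMIs in cells and 235401 and 189990 in free-RNA barcodes.

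The members and gene lists were chosen with earlier results of these data known. The markers were listed in the design, but the class limits, the Ctla4/Ikzf2 class and the minimum of 50 cells were set after the data were seen. The T cell class needed 20 UMIs of its list per 10000 and at least 5 UMIs; 6 of its 9 markers were used here. Classes are rebuilt and can differ from those of the study. Cells matching T and another lineage other than monocytes, or both a non-leukocyte and a leukocyte list, were left out (179 WT and 301 IL31RAKO). Also left out were 1868 and 1880 unassigned cells, which held 7.93% and 6.29% of Tnfrsf4 UMIs and 22.3% and 13.3% of Cd40 UMIs. No doublet caller was used for the main values; removal of the highest Scrublet scores was an alternative. Clusters (31, Leiden, scanpy 1.11.5) were made without the members. Each was matched to the commonest class of its classed cells, which made up 30.7% to 100% of them. Values by cluster therefore also hold cells of other classes. The free-RNA part of a level was the free-RNA CPM times the share at which macrophage genes (T classes) or T cell genes (other classes) were found. Genes named were all members, the 3 genes most like each, the family genes past 1.5-fold in the 2 classes with most Tnfrsf4, Tnfrsf9 and Tnfrsf18 UMIs, and 5 partners; Sdf4 and Gm16008 were added for their position. The ratio and its interval were tested on simulated Poisson counts per gene, which lack the uneven spread of UMIs among cells seen in the data. Computations used Python 3.11.15, SciPy 1.17.1 and pandas 2.3.3.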

Additional observations from a re-analysis of the deposited data

Results flagged for a closer look

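Cd40lg differed between the libraries in opposite directions in T cell classes: its ratio, IL31RAKO over WT, was 2.04 in Foxp3+ T cells and 0.573 in Ctla4/Ikzf2 T cells and 0.602 in Cd4+ T cells. With 1 library per genotype the difference between classes was not tested. The Foxp3+ T value rests on 25 and 82 UMIs and turned to 0.721 in the matching cluster.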

How the results depend on the processing

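For 88 member ratios, 718 values under alternatives were computed: 665 stayed within the counting interval of the main ratio, 48 left it on the same side of 1 or from an interval that spanned 1, and 5 turned to the other side of 1. With Leiden clusters in place of marker classes, the Cd40lg ratio in Foxp3+ T cells was 0.721 (2.04 by class), the Tnfsf8 ratio in macrophage-gated cells 1.12 (0.677) and the Cd40 ratio in cDC1-gated cells 0.723 (2.19); the Tnfrsf4 ratio in CD8 T cells was 1.59, the Tnfrsf18 ratio in Foxp3+ T cells 1.25 and the Cd40lg ratio in CD8 T cells 0.691. With the mean of per-cell CPM, the Tnfrsf4 ratio in CD8 T cells was 2.06, the Tnfrsf18 ratio there 1.55 and the Tnfrsf9 ratio in Langerhans-gated cells 0.889 (1.47). With free RNA subtracted, the Tnfsf8 ratio in macrophage-gated cells was 2.67, and 13 of the 88 ratios had no value. Levels and shares of UMIs moved with the cell grouping: by cluster, 18 of 18 shares and 13 of 18 levels left their intervals, as the Tnfrsf4 level in Foxp3+ T cells did at 1433 (WT) and 1746 CPM (IL31RAKO). A T cell list limit of 40 per 10000, chosen after the data were seen, gave 2.18 for Tnfrsf4 and 2.04 for Tnfrsf9 in CD8 T cells. The cause of these shifts was not tested. Of 40 thinned ratios of shares, 31 stayed within the interval of the unthinned ratio and 0 turned. No paired analysis was possible because each genotype was 1 library and no test was made.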
